A study of Mus musculus with 30 samples.

Results

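The NF-kB pathway genes described here are the 5 subunit genes Nfkb1, Nfkb2, Rel, Rela and Relb and the 5 inhibitor genes Nfkbia, Nfkbib, Nfkbie, Nfkbiz and Tnfaip3. They were taken by symbol from the deposited count tables, where each symbol matched 1 entry, and are 10 of the 46113 genes in the tables, of which 21989 have an exon. Levels are total exon reads as CPM (counts scaled to a common library size), with library sizes adjusted by the trimmed mean of M values (TMM), so a higher or lower level is a larger or smaller share of the reads of a library.

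All 30 libraries were made from 100 sorted bone marrow cells each, and the mice were C57BL/6 at an age of 8 to 10 weeks. Haematopoietic stem cells (HSCs) were gated as CD150+ CD48- EPCR+ and negative for lineage markers, and haematopoietic progenitor cells (HPCs) by the same markers but CD48+. One experiment compared HSCs of untreated mice (n = 4) with HSCs of mice given 5-fluorouracil (5-FU) 6 days (n = 4) or 10 days earlier (n = 6). 5-FU is a cytotoxic drug that depletes cycling marrow cells, after which HSCs rebuild the marrow. A second compared HSCs of untreated mice that were not cultured (n = 4) or were cultured for 1 day (n = 4), and another compared CD48- HSCs (n = 4) with CD48+ HPCs (n = 4), both 10 days after 5-FU. The labels give no dose of 5-FU, no culture medium and name no transgene or mutant allele in any group. They call the libraries of a group separate samples without saying whether these came from separate mice, so p-values measure only the spread between these samples, which may be technical.

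NF-kB factors are dimers of the Rel family. In resting cells the classical dimer of RelA (from Rela) and p50 (cut from the product of Nfkb1) is held in the cytoplasm by IkB proteins. Tumour necrosis factor, interleukin-1 or Toll-like receptor ligands activate the IkB kinase, the IkB proteins are degraded, and the dimer enters the nucleus. Several genes it switches on encode its own brakes, among them Nfkbia (IkB-alpha) and Tnfaip3 (A20), so their mRNA is widely read as a trace of recent signalling. In HSCs the pathway is known for responses to inflammation and infection and for survival, and A20 is known to be needed to keep HSCs in the marrow.

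The libraries held 5208722 to 12243208 exon reads. The lowest count of a member in any library was 45 reads, for Tnfaip3, so every member was measured in every library. The 11 HSC markers fixed for the check (such as Procr, Slamf1, Mecom and Hlf) were all read in every group, with summed levels of 5214 to 6049 CPM in untreated HSCs and 2028 to 2446 in CD48+ HPCs. Cd48 itself was at 45.8 to 56.7 CPM in the CD48+ libraries and at 0 to 6.05 in the other 26. In 6 libraries the summed level of a list of other cells' markers or of immediate early genes was over 3 times the median of the group. They were untreated replicate 3 (neutrophil markers), day-6 replicate 1 and CD48+ replicate 3 (macrophage markers), CD48- replicate 3 (erythroid and macrophage markers), uncultured replicate 1 (endothelial and stromal markers) and uncultured replicate 2 (immediate early genes). Counts of changed members are given with and without these 6 libraries.

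Promoter sequence was at hand for 7 of the 10 members (RefSeq, GRCm38.p6, the assembly called mm10), for all but Nfkb1, Relb and Nfkbiz. The 250 bases before the start of transcription were searched on both strands for the kB consensus, the 10-base pattern named for NF-kB, and for TGACTCA, the AP-1 pattern. The kB consensus was found in 5 members, namely Nfkb2, Rel, Nfkbia, Nfkbie and Tnfaip3, and TGACTCA in Nfkbie and Tnfaip3. Some genes have several windows. Of all 27025 genes in the table, 4.46% held the kB consensus in a window and 5.16% TGACTCA, and of all 32851 windows 3.90% and 4.46%. Below are the windows of Nfkbia, Tnfaip3 and Nfkbie, 3 of the 4 inhibitors that fell at day 6 and rose by day 10 (the other, Nfkbiz, is without a window), and of Nfkbib, which passed in neither comparison. Bases run 5′ to 3′ on the strand of the gene, and capitals mark matches to either pattern. The windows are chr12:55492648-55492897 (Nfkbia, minus strand), chr10:19015411-19015660 (Tnfaip3, minus), chr17:45555450-45555699 (Nfkbie, plus) and chr7:28766645-28766894 (Nfkbib, minus), each outside the gene as the count tables place it.
Nfkbia: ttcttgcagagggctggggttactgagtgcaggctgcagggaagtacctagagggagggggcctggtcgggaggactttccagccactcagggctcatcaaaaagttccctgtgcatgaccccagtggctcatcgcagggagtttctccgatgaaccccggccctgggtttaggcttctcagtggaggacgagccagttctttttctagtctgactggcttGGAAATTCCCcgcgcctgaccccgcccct
Tnfaip3: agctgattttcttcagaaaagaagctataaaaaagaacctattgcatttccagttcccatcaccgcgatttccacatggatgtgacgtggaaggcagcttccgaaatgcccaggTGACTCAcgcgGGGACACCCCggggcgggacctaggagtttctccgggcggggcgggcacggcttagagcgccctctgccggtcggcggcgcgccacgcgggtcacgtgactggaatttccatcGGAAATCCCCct
Nfkbie: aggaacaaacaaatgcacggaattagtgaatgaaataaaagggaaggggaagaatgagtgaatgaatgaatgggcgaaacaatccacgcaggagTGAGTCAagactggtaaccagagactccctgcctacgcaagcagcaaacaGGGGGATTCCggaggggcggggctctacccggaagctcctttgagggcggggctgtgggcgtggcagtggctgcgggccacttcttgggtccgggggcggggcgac
Nfkbib: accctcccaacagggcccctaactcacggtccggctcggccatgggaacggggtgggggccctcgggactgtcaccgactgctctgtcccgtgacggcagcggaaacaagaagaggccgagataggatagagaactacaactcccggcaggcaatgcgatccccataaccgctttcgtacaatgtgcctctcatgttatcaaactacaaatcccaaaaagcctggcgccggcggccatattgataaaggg
The match in Nfkbia, GGAAATTCCC, starts at position -29, counting from -1 at the last base before the start. Tnfaip3 has 2 kB matches, GGGACACCCC at -125 and GGAAATCCCC at -12, with TGACTCA at -136, and none of the 3 overlap. A second RefSeq start of Tnfaip3 has no match to either pattern in its window. In Nfkbie the kB match GGGGGATTCC starts at -106 and the AP-1 pattern, on the other strand as TGAGTCA, at -156. No match to either pattern stands in the Nfkbib or Rela windows. Nfkb2, Nfkbia, Nfkbie and Tnfaip3, with a kB match, fell at day 6 and rose by day 10, and so did Rela, without one. Rel, with a kB match, did not pass at day 6 and rose by day 10. Whether a match goes with a change was not tested. A match describes letters in the window and is not evidence of a bound site.

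Between genes, levels were compared as CPM per kilobase of exon. In untreated HSCs Nfkbia, encoding the inhibitor that responds fastest to signals, was highest, at 72.5 ± 14.3 CPM per kb (SD, n = 4), followed by Nfkb1 at 58.7 ± 4.28 and Rela at 57.5 ± 3.16. The libraries' ranges of these 3 neighbours overlapped. Nfkbiz stood at 35.2 ± 7.25 and Nfkb2 at 22.4 ± 4.86 CPM per kb, again with overlapping ranges. The other 5 members lay between 6.47 ± 1.25 (Nfkbib) and 10.9 ± 1.22 (Nfkbie). Nfkb1 and Rela, for the subunits of the classical dimer, were above Nfkb2, Rel and Relb per length in all 4 libraries. In uncultured HSCs, the control of the culture experiment, Rela was at 59.3 ± 5.47, Nfkbia at 55.3 ± 17.2 and Nfkb1 at 52.1 ± 0.852. The ranges of these neighbours overlapped too. In cultured HSCs Nfkb1 was at 56.1 ± 2.04 and Rela at 51.1 ± 4.56, with Nfkbia at 12.4 ± 2.84 beside Nfkbib at 11.2 ± 0.509. At day 10 Nfkbia had the highest mean of any member in any group, 92.3 ± 45.9 CPM per kb (SD, n = 6), with the widest spread.

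Over the 7 groups the members differed much in how far their mean CPM ranged. The highest group mean was 11.0 times the lowest for Nfkbiz, 7.42 times for Nfkbia and 6.43 times for Tnfaip3. The Nfkbiz value rests on uncultured replicate 2, at 407 CPM, while the other uncultured libraries lay at 89.1 to 97.2. Its next highest mean was 136 ± 28.1 CPM (SD), in untreated HSCs. Such ratios can also cross experiments. For Relb the ratio was 3.46, for Nfkbie 3.24, for Nfkb2 2.32 and for Nfkbib 2.01. Rel, Nfkb1 and Rela varied least, with ratios of 1.71, 1.63 and 1.27. The lowest mean was that of day-6 HSCs for 6 members, of cultured HSCs for Nfkbia, Nfkbiz and Tnfaip3, and of uncultured HSCs for Nfkb1.

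Nfkbia and Tnfaip3 had the same order of groups. The Nfkbia mean was 146 ± 72.5 CPM at day 10 (SD, n = 6), 114 ± 22.5 untreated, 87.4 ± 21.7 in CD48- HSCs, 87.4 ± 27.2 uncultured, 64.6 ± 8.58 in CD48+ HPCs, 38.0 ± 3.89 at day 6 and 19.7 ± 4.48 cultured (n = 4 each). Each of the first 5 groups overlapped its neighbour, while day 6 lay apart from the group above it and cultured HSCs apart from day 6, and the same held for Tnfaip3. Nfkb1 had another order. Its means were 325 ± 29.3 to 389 ± 19.8 CPM in the 4 groups of mice given 5-FU. In the 3 groups without it they were 238 ± 3.89 to 268 ± 19.5. The lowest library of the former was at 290.4 CPM, at day 6, and the highest of the latter at 285.1, untreated. These groups span separate experiments, and the CD48- and CD48+ groups have no group without 5-FU in theirs. The share of all genes split in this way was not counted.

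**Figure D1:**
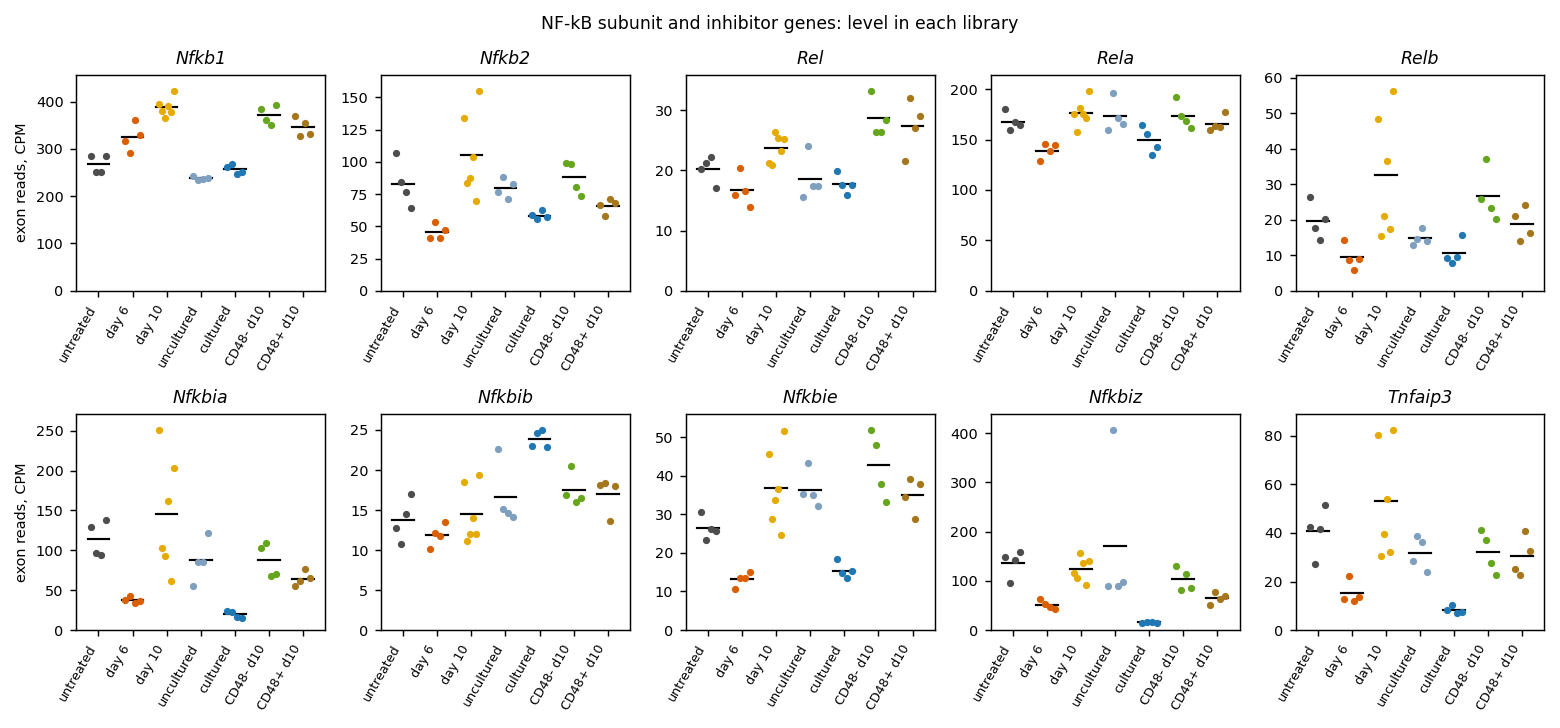
Each panel plots the level of 1 gene in CPM (y axis, from 0) in each of the 30 libraries (points) of the 7 groups (x axis), with a bar at the group mean. Nfkbia, Nfkbie and Tnfaip3 are low in the 4 day-6 and the 4 cultured libraries, while Rela differs little and Nfkbib is highest in the cultured ones.

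The comparison of day-6 with untreated HSCs asks what 5-FU did to these transcripts while the marrow was depleted. Inhibitor mRNA was lower: Nfkbia, Tnfaip3, Nfkbiz and Nfkbie fell, and so did the subunits Relb, Nfkb2 and Rela, while Nfkb1 rose. By edgeR's quasi-likelihood test with Benjamini-Hochberg adjustment over all genes tested (threshold 0.05), 7 of the 10 members fell and 1 rose, where 51.4% of the 12886 genes tested passed, 25.7% in each direction. The members' median log2 change was -0.94, beside -0.04 for all genes. For 8 members the groups did not overlap, as was so for 48.5% of all genes. With so many genes called, a call at day 6 sets no gene apart. Without the 6 libraries that stood apart the counts were again 7 and 1. In these bulk libraries fewer cells with a transcript and less of it per cell cannot be told apart.

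Among the inhibitors, Nfkbia (gene 18035, mm10 chr12:55489409-55492647, minus strand, 6 exons) was at 129.8, 96.6, 93.8 and 138 CPM in untreated replicates 1 to 4 and at 38.1, 43.1, 33.7 and 37.0 in the day-6 replicates. All day-6 libraries were below all untreated ones, and they lay close together. The log2 change was -1.59 ± 0.34 (SE), edgeR adjusted p = 0.00102, a 3.02-fold lower level. Tnfaip3 (gene 21929, mm10 chr10:19000910-19015410, minus strand, 11 exons), whose product A20 edits ubiquitin chains to stop signalling from the receptors, was at 42.3, 27.3, 41.7 and 51.6 CPM in untreated and 12.9, 22.4, 11.8 and 13.7 in day-6 libraries. The groups did not overlap, with untreated replicate 2 and day-6 replicate 2 nearest each other, and the log2 change was -1.42 ± 0.34 (SE), edgeR adjusted p = 0.00237. Nfkbiz (gene 80859, mm10 chr16:55811377-55838641, minus strand, 15 exons) encodes IkB-zeta, a nuclear cofactor rather than a cytoplasmic inhibitor. It was at 148, 95.4, 143 and 159 CPM in untreated and 63.5, 52.8, 46.9 and 43.0 in day-6 libraries, again without overlap, with a log2 change of -1.40 ± 0.18 (SE), edgeR adjusted p = 1.56e-05.

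Nfkbie (gene 18037, mm10 chr17:45555700-45563169, plus strand, 7 exons), for IkB-epsilon, stood at 30.5, 23.4, 26.3 and 25.6 CPM untreated and 10.6, 13.6, 13.5 and 15.0 at day 6. Every day-6 library was lower, and the log2 change was -1.01 ± 0.21 (SE), edgeR adjusted p = 0.000791. Nfkbib (gene 18036, mm10 chr7:28758251-28766644, minus strand, 8 exons), for IkB-beta, which resembles IkB-alpha in binding RelA dimers, was the inhibitor that did not pass. Its levels of 12.7, 10.8, 14.5 and 17.0 CPM untreated and 10.1, 12.1, 11.7 and 13.5 at day 6 overlapped, and the log2 difference was -0.21 ± 0.21 (SE), edgeR adjusted p = 0.409.

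Of the subunits, Nfkb1 (gene 18033, mm10 chr3:135584655-135691982, minus strand, 28 exons) was at 285, 250.2, 252 and 285 CPM untreated and 317, 290.4, 361 and 330.0 at day 6. All 4 day-6 libraries were higher, by a log2 change of 0.28 ± 0.075 (SE), edgeR adjusted p = 0.00606. Nfkb2 (gene 18034, mm10 chr19:46304320-46312090, plus strand, 27 exons), the precursor of p52 used in the slower alternative pathway, went from 107, 84.1, 76.9 and 64.3 CPM to 41.1, 53.5, 40.7 and 47.3. No library overlapped, and the log2 change was -0.87 ± 0.22 (SE), edgeR adjusted p = 0.00428. Relb (gene 19698, mm10 chr7:19606217-19629438, minus strand, 17 exons), whose product pairs with p52, was at 26.5, 17.8, 14.5 and 20.3 CPM untreated and 14.2, 8.61, 5.79 and 9.06 at day 6. Day-6 replicate 1 came just under the lowest untreated library, and the log2 change was -1.08 ± 0.40 (SE), edgeR adjusted p = 0.0358. This call was lost when untreated replicate 1 or 4 or day-6 replicate 2, 3 or 4 was left out (log2 -1.07 to -0.90, adjusted p = 0.0618 to 0.103).

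Rela (gene 19697, mm10 chr19:5637440-5648131, plus strand, 14 exons), the activating subunit of the classical dimer, was at 181, 159, 167 and 164 CPM untreated and 128, 145, 139 and 144 at day 6. The groups did not overlap, but the change was small, with a log2 value of -0.27 ± 0.075 (SE), edgeR adjusted p = 0.00703. Rel (gene 19696, mm10 chr11:23741729-23770970, minus strand, 10 exons), for c-Rel, did not pass, with 20.2, 21.3, 22.2 and 17.0 CPM untreated against 15.8, 20.5, 16.5 and 14.0 at day 6. Here the groups overlapped through day-6 replicate 2, and the log2 difference of -0.27 ± 0.14 (SE), edgeR adjusted p = 0.116, became -0.39 (adjusted p = 0.0342) without that library.

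Intron reads, which can come from unspliced RNA but whose origin was not tested here, gave a second readout of the same libraries. At day 6 all 10 members had intron changes of the same sign as their exon changes, and 4 passed the test on introns, as 28.1% of 12820 genes did (14.2% higher, 13.9% lower). Those 4 fell. Tnfaip3 changed by -1.92 ± 0.31 (log2, SE) in introns, Nfkbia by -1.58 ± 0.49, Nfkbiz by -1.11 ± 0.12 and Rela by -0.64 ± 0.15 (edgeR adjusted p = 0.000373, 0.0243, 2.40e-05 and 0.00438). For Nfkb1 the intron change was 0.12 ± 0.08 and did not pass.

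The rest of the pathway was read from lists of genes by role, whose counts stand beside the 51.4% of all genes called. The share called was 6 of 21 adaptors, 5 of 15 receptors, 8 of 18 targets, 7 of 14 other inhibitors and 7 of 12 kinases, near or below that of all genes. Among IkB kinase genes and their activators 1 rose and 6 fell of 12 tested. Ikbke, a kinase related to the IkB kinases and induced by inflammation, fell by 1.47 on the log2 scale, and Map3k14, the kinase that starts the alternative pathway, fell by 0.87. Of other inhibitors and atypical IkB genes 2 rose and 5 fell of 14 (Cyld, a deubiquitinase, fell by 0.64). Of adaptors and ubiquitin ligases 1 rose and 5 fell of 21, led by Irak2 (-1.54) and Traf1 (-1.16), both adaptors of receptor signalling. Of receptor genes 2 rose and 3 fell of 15. Tlr4, the endotoxin receptor, fell by 0.84 and Tnfrsf11a rose by 1.52. Of known target genes 3 rose and 5 fell of 18. Bcl2l1, a survival gene, rose by 0.65 and the heparan sulphate proteoglycan gene Sdc4 fell by 1.55. The median log2 changes of the lists were -0.20 (kinases), -0.11 (other inhibitors), -0.13 (adaptors), 0.048 (receptors) and -0.27 (targets), beside -0.036 for all genes.

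Immediate early genes, such as Fos, Jun and Egr1, moved with the inhibitors: 1 rose and 21 fell of 27 tested, and their summed level was 3082 to 7079 CPM in untreated and 903 to 1399 in day-6 libraries. Macrophage markers moved the other way, with 12 of 14 tested higher and summed levels of 97.3 to 130.2 CPM untreated and 108 to 844 at day 6, and none of the 16 at 0 in either group. HSC markers summed to 5214 to 6049 CPM untreated and 3046 to 3173 at day 6 (0 rose and 6 fell of 11 tested). Erythroid markers summed to 3209 to 7347 CPM untreated and 1074 to 1322 at day 6, where 4 of 14 were at 0 in all libraries (1 rose and 10 fell of 13 tested). Megakaryocyte markers summed to 677 to 1041 CPM untreated and 619 to 885 at day 6 (0 rose and 3 fell of 5 tested). Endothelial and stromal markers summed to 147 to 206 CPM untreated and 81.7 to 128 at day 6 (0 rose and 3 fell of 7 tested). The share of reads on introns was 63.7 to 66.7% in untreated and 56.2 to 58.0% in day-6 libraries. The part of these differences in the members' changes was not tested.

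**Figure D2:**
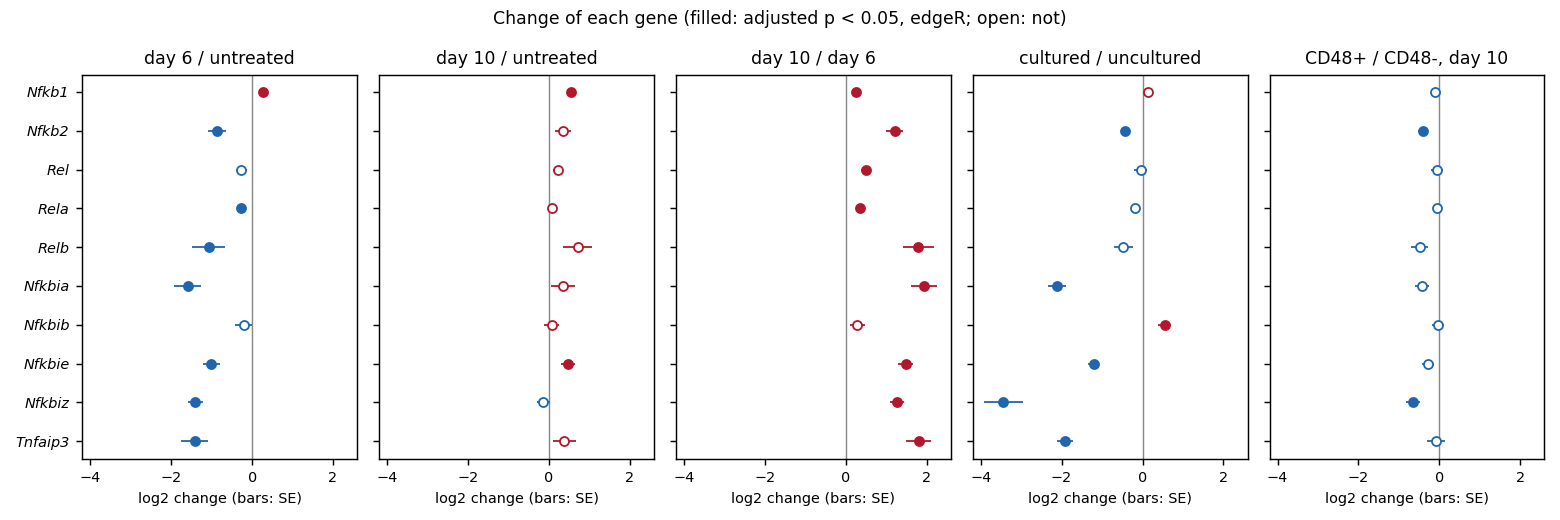
Log2 change of each gene (x axis; bars are standard errors) in the 5 comparisons (panels), with filled points where the edgeR adjusted p is under 0.05 and open points where it is not. 7 genes stand filled left of 0 at day 6 and 9 stand right of 0, filled, from day 6 to day 10.

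From day 6 to day 10 all members but Nfkbib rose: the 7 that had fallen at day 6, together with Rel, which had not passed there, and Nfkb1, which had already risen. Against the day-6 libraries, 9 of 10 members rose and 0 fell, where 30.6% of all genes passed (14.7% higher, 15.9% lower). The median over members was 1.24 on the log2 scale, beside -0.02 for all genes, and for 9 members the groups did not overlap, against 22.6% of all genes. The 9 were called in every alternative and with any single library left out, and also without the 6 libraries that stood apart. This comparison shares its day-6 libraries with the one above, so the changes before and after day 6 are not independent of each other.

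Of the inhibitors, Nfkbia and Tnfaip3 had the largest estimates. The subunit Relb, at a log2 change of 1.79 ± 0.38 (SE), was close to Tnfaip3, and differences in size were not tested. Nfkbia at day 10 was at 61.8 (lowest), 133 (median) and 251 (highest) CPM, the lowest library still above the day-6 maximum of 43.1, and its log2 change was 1.94 ± 0.32 (SE), edgeR adjusted p = 0.000534. Tnfaip3 was at 30.3 (lowest), 46.8 (median) and 82.4 (highest) CPM, with a log2 change of 1.80 ± 0.32 (SE), edgeR adjusted p = 0.000815. Both had day-10 libraries spread over a wide range, while their day-6 libraries were all low. Nfkbie was at 24.6 (lowest), 35.2 (median) and 51.5 (highest) CPM at day 10, with a log2 change of 1.48 ± 0.19 (SE), edgeR adjusted p = 0.000105. Nfkbiz was at 91.2 (lowest), 126 (median) and 156 (highest) CPM, with a change of 1.26 ± 0.17 (SE), edgeR adjusted p = 0.000141. For these 4 inhibitors no day-10 library fell within the day-6 range. Nfkbib again did not pass, at 11.1 (lowest), 13.0 (median) and 19.3 (highest) CPM and a log2 difference of 0.28 ± 0.19 (SE), edgeR adjusted p = 0.273.

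Among the subunits, those of the alternative pathway had larger estimates than those of the classical dimer. Relb was at 15.4 (lowest), 28.9 (median) and 56.5 (highest) CPM at day 10, with a log2 change from day 6 of 1.79 ± 0.38 (SE), edgeR adjusted p = 0.00269, and Nfkb2 at 69.7 (lowest), 95.8 (median) and 155 (highest) CPM changed by 1.21 ± 0.21 (SE), edgeR adjusted p = 0.000704. Rel, at 20.8 (lowest), 24.2 (median) and 26.4 (highest) CPM, rose by a log2 value of 0.50 ± 0.13 (SE), edgeR adjusted p = 0.00773. Rela, at 158 (lowest), 175 (median) and 199 (highest) CPM, rose by 0.34 ± 0.069 (SE), edgeR adjusted p = 0.002, and Nfkb1, at 366 (lowest), 385 (median) and 423 (highest) CPM, by 0.26 ± 0.069 (SE), edgeR adjusted p = 0.0109. For these 5 genes all 6 day-10 libraries stood above all 4 day-6 libraries. The difference in size between subunits was not itself tested.

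The intron reads moved as the exon reads did. All 10 intron changes were positive, and the same 9 members passed on introns, where 18.1% of genes did (9.41% higher, 8.65% lower). The intron change was 2.30 ± 0.30 (log2, SE) for Tnfaip3, 2.07 ± 0.46 for Nfkbia, 1.75 ± 0.33 for Nfkbie and 0.97 ± 0.20 for Rel (edgeR adjusted p = 0.000247, 0.00691, 0.00261 and 0.00494).

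**Figure D3:**
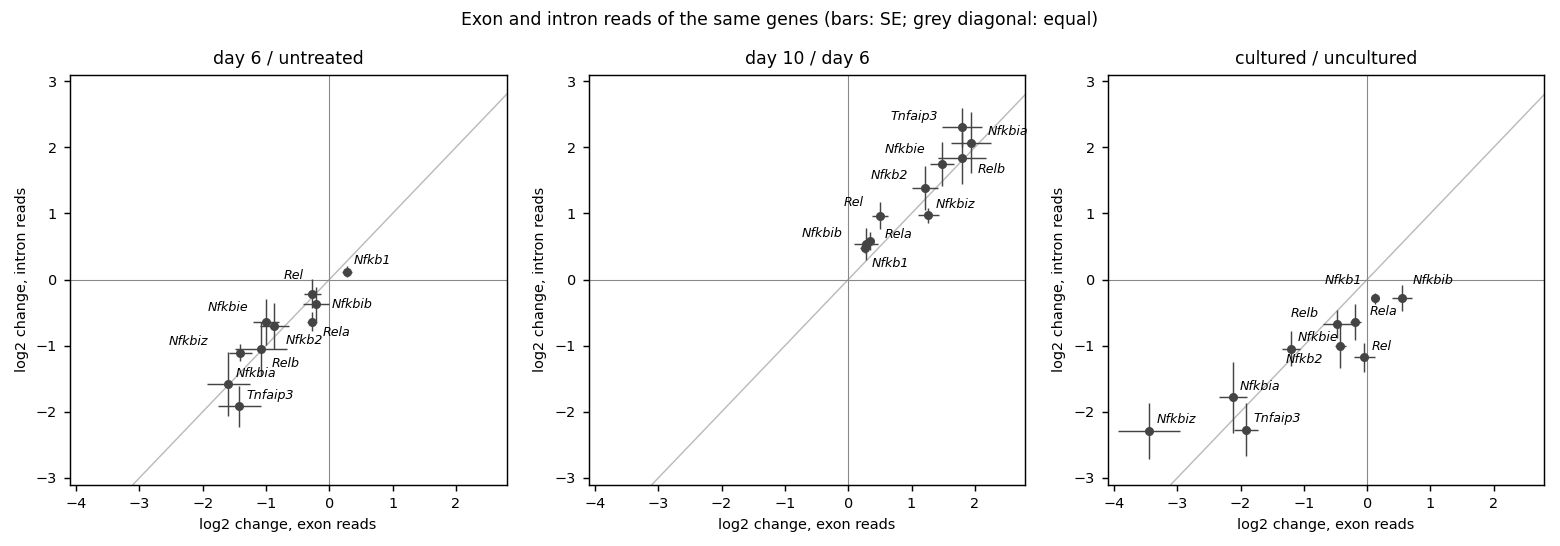
Log2 change in exon reads (x axis) against that in intron reads (y axis) for the 10 genes in 3 comparisons, with standard errors as bars and a grey line where both are equal. From day 6 to day 10 all points lie in the upper right. In culture Nfkb1 and Nfkbib lie right of 0 in exon reads and below 0 in intron reads.

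Elsewhere in the pathway, beside 14.7% of all genes higher and 15.9% lower, more list genes rose than fell from day 6 to day 10, and many did not pass. Of adaptors and ubiquitin ligases 8 rose and 0 fell of 21, of kinases 5 rose and 0 fell of 12, of target genes 9 rose and 3 fell of 18, of receptors 4 rose and 1 fell of 15 and of other inhibitors 5 rose and 1 fell of 14. The median log2 changes of the lists were 0.17 (kinases), 0.10 (other inhibitors), 0.26 (adaptors), 0.23 (receptors) and 0.67 (targets), beside -0.016 for all genes. Birc3, a ubiquitin ligase that is itself a target of NF-kB, was at 80.4 ± 25.0 against 33.9 ± 3.90 CPM (SD). Bcl3, an atypical IkB that binds p50 and p52 in the nucleus, was at 65.2 ± 24.4 against 20.9 ± 1.43 CPM. Il1r1, the interleukin-1 receptor, rose by 1.84 on the log2 scale and Ikbke by 0.89. Falls included Bcl2l1 (-0.58) and Sod2, a mitochondrial antioxidant enzyme (-0.29). Immediate early genes rose as well (21 rose and 1 fell of 27 tested), to summed levels of 2317 to 4113 CPM. Macrophage markers summed to 108 to 844 CPM at day 6 and 177 to 429 at day 10. Endothelial and stromal markers summed to 81.7 to 128 CPM at day 6 and 199.7 to 615 at day 10 (3 rose and 0 fell of 7 tested). Erythroid markers summed to 1074 to 1322 CPM at day 6 and 906 to 2092 at day 10 (1 rose and 1 fell of 13 tested). The part of these in the members' rise was not tested.

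Set against untreated HSCs, 8 of the 10 members did not pass at day 10. Here 2 members rose and 0 fell, where 38.0% of all genes passed (19.9% higher, 18.1% lower), so the members' share was below that of all genes. The median log2 difference of the members was 0.35 beside -0.004 for all genes, and the groups did not overlap for 1 member, against 23.6% of all genes. Nfkb1 rose, by a log2 change of 0.54 ± 0.069 (SE), edgeR adjusted p = 4.42e-05, with all 6 day-10 libraries above the untreated maximum of 285 CPM. Its introns changed by 0.59 ± 0.074 (edgeR adjusted p = 0.000103). Nfkb1 was also the one member that had risen at day 6, and its level stood at 268 ± 19.5, 325 ± 29.3 and 389 ± 19.8 CPM (mean ± SD) in untreated, day-6 and day-10 HSCs.

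Nfkbie stood at 36.8 ± 10.1 CPM at day 10 (SD, n = 6) and 26.5 ± 2.98 untreated (n = 4), a log2 change of 0.47 ± 0.18 (SE), edgeR adjusted p = 0.0498. That call lay at the threshold and was lost in 15 of 22 alternatives, among them those leaving out any 1 untreated library or day-10 replicate 1, 4 or 6 (log2 0.36 to 0.55, adjusted p = 0.0502 to 0.122). On introns 3 members passed, all higher, against 19.1% of all genes (9.69% higher, 9.38% lower). Nfkbie changed by 1.11 ± 0.31 there and Rel by 0.75 ± 0.20, together with Nfkb1. Nfkbia, Tnfaip3 and Nfkbiz differed from untreated by log2 values of 0.35 ± 0.29 (SE), edgeR adjusted p = 0.374, of 0.38 ± 0.29 (SE), edgeR adjusted p = 0.323, and of -0.14 ± 0.16 (SE), edgeR adjusted p = 0.525. Relb differed by 0.71 ± 0.35 (SE), edgeR adjusted p = 0.124, and passed (adjusted p = 0.0499) when day-10 replicate 2 was left out. Of immediate early genes 0 rose and 11 fell of 27 tested (median log2 change -0.72). HSC markers summed to 5214 to 6049 CPM untreated and 2718 to 3809 at day 10 (2 rose and 4 fell of 11 tested). Macrophage markers summed to 97.3 to 130.2 CPM untreated and 177 to 429 at day 10 (6 rose and 0 fell of 14 tested). Erythroid markers summed to 3209 to 7347 CPM untreated and 906 to 2092 at day 10 (1 rose and 6 fell of 13 tested). Introns held 63.7 to 66.7% of gene reads untreated and 57.6 to 62.1% at day 10, and the part of these in the differences was not tested. Beside 19.9% of all genes higher and 18.1% lower, 1 rose and 2 fell of 12 kinases, 2 rose and 1 fell of 14 other inhibitors, 4 rose and 3 fell of 21 adaptors, 4 rose and 2 fell of 15 receptors and 4 rose and 1 fell of 18 targets. The median log2 changes of the lists were 0.035 (kinases), -0.039 (other inhibitors), 0.062 (adaptors), 0.34 (receptors) and 0.13 (targets), beside -0.0043 for all genes. Bcl3 stood at 65.2 ± 24.4 against 18.0 ± 3.68 CPM, a log2 change of 1.86, and Birc3 rose by 0.64.

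The spread among the 6 day-10 libraries had an order. For 7 of the 10 members (Nfkb1, Nfkb2, Relb, Nfkbia, Nfkbib, Nfkbie and Tnfaip3) the 3 highest libraries were replicates 1, 4 and 6. Nfkbia was at 251, 162 and 203 CPM in those and at 103, 93.1 and 61.8 in replicates 2, 3 and 5. Relb was at 48.4, 36.6 and 56.5 CPM against 15.4, 21.2 and 17.4. Rela, Rel and Nfkbiz did not follow this order. The same 3 libraries were the highest for 11.0% of the 12886 genes tested. They were picked after the members' values were seen, so the members' share cannot be weighed against this one. The labels give nothing that separates these libraries, so no test was made. Erythroid markers (14 genes) summed to 2092, 2025 and 1309 CPM in replicates 1, 4 and 6 and to 906 to 1078 in the other 3. The share of gene reads on introns was 57.6 to 59.3% in those 3 libraries and 61.1 to 62.1% in the others. The part of these values in the order was not tested.

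Some other genes of the pathway had the same order and some did not. Birc3, Bcl3 and Icam1, an adhesion molecule and target of NF-kB, had the same 3 libraries on top, with Birc3 at 108, 76.8 and 114 CPM there and 58.8, 69.6 and 55.0 elsewhere. Traf1, Ikbke and the interferon regulatory factor gene Irf1 did not have those 3 on top. Cxcl10, a chemokine gene that interferons and NF-kB both induce, was at 500.5 CPM in replicate 6 and 118 in replicate 4, but at 5.17 in replicate 1, the lowest of the 6. The summed immediate early genes were highest in replicate 3, at 4113 CPM, and lowest in replicates 6 and 1, at 2317 and 2350.0. Replicates 1 and 6, highest in Nfkbia and Tnfaip3, were thus the lowest in immediate early genes.

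**Figure D4:**
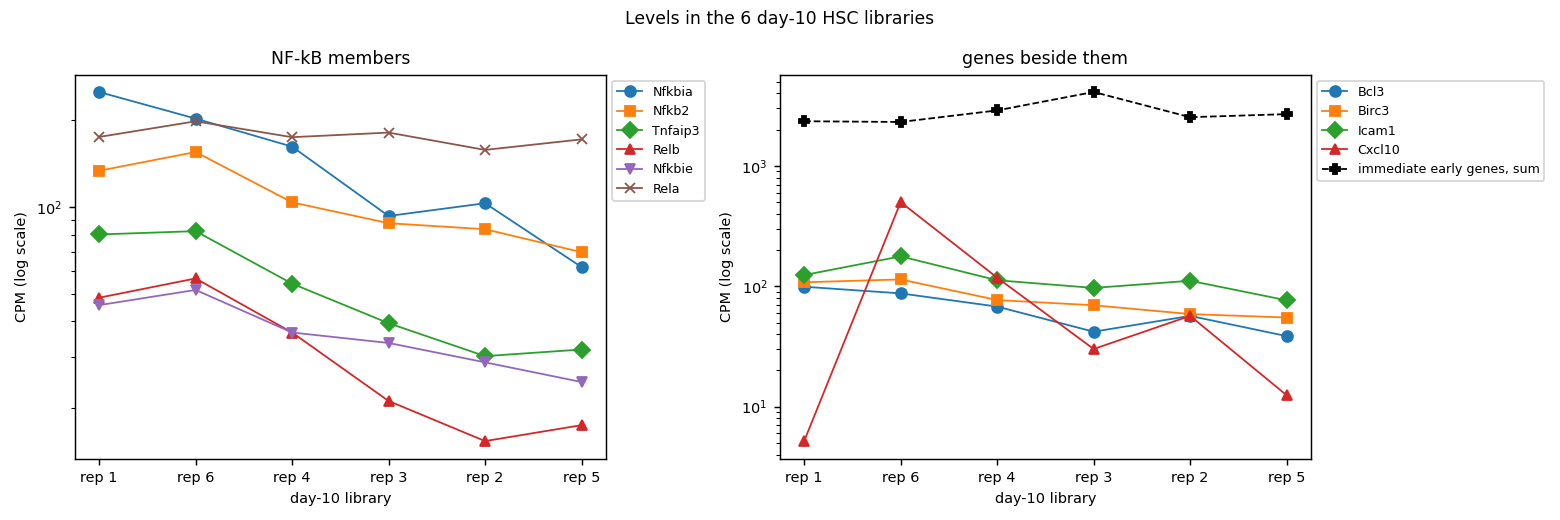
CPM (log scale) in the 6 day-10 HSC libraries, for 6 NF-kB genes (left) and for genes beside them (right); lines join the values of 1 gene. Replicates 1, 6 and 4 are the highest 3 for 5 of the 6 genes on the left and for Bcl3, Birc3 and Icam1, while Cxcl10 is lowest in replicate 1 and the immediate early genes are highest in replicate 3.

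The comparison of cultured with uncultured HSCs asks what 1 day outside the mouse did to the same genes. The inhibitors Nfkbiz, Nfkbia, Tnfaip3 and Nfkbie fell, Nfkb2 fell slightly, and Nfkbib rose. In numbers 5 members fell and 1 rose, where 67.6% of 12386 genes passed (33.8% in each direction), so here too the count alone sets no gene apart. The median over members was -0.45 on the log2 scale beside -0.01 for all genes, and 7 members did not overlap between groups, against 62.0% of all genes. Without the libraries that stood apart the counts were 5 and 1 as well.

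Nfkbia was at 55.7, 85.9, 85.8 and 122 CPM in uncultured replicates 1 to 4 and at 23.9, 23.1, 16.3 and 15.3 after culture. The cultured libraries were all lower, and the log2 change was -2.12 ± 0.22 (SE), edgeR adjusted p = 2.64e-06, a 4.35-fold difference. Tnfaip3 went from 28.3, 38.6, 36.1 and 24.0 CPM to 8.23, 10.3, 7.04 and 7.46, also without overlap, by -1.92 ± 0.19 (SE), edgeR adjusted p = 2.14e-06. Nfkbie went from 35.2, 43.2, 34.9 and 32.2 CPM to 18.4, 14.7, 13.4 and 15.2, a log2 change of -1.21 ± 0.14 (SE), edgeR adjusted p = 9.07e-06. Uncultured HSCs were higher in every library for these 3 inhibitors.

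Nfkbiz showed the widest difference and the least even control group. It was at 89.1, 407, 90.0 and 97.2 CPM in uncultured and at 14.2, 17.2, 17.4 and 13.7 in cultured libraries. Uncultured replicate 2 stood over 4 times above the other 3, and the cultured libraries were all far below. The log2 change was -3.44 ± 0.49 (SE), edgeR adjusted p = 4.58e-05. Without uncultured replicate 2 it was -2.53, and the call held. In that library the immediate early genes summed to 12793 CPM, against 2750.5 to 4097 in the other 3, while its Nfkbia, at 85.9 CPM, was within their range.

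Nfkbib was the one inhibitor that rose. It was at 22.6, 15.1, 14.7 and 14.1 CPM uncultured and 23.0, 24.6, 25.0 and 22.9 cultured, with uncultured replicate 1 close below the cultured libraries. The log2 change was 0.55 ± 0.16 (SE), edgeR adjusted p = 0.01. Its intron reads did not rise with the exon reads, with a log2 difference of -0.28 ± 0.20 (edgeR adjusted p = 0.258). Of the Nfkbib reads on the gene, introns held 57.9 ± 5.08% before and 35.8 ± 2.21% after culture (SD, n = 4 each). Over all genes introns held 65.4 to 67.6% of reads in uncultured and 56.2 to 56.5% in cultured libraries.

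Among the subunits only Nfkb2 passed, falling from 76.5, 88.1, 71.0 and 82.7 CPM to 58.4, 55.4, 62.4 and 57.2. The groups did not overlap, and the log2 change was -0.42 ± 0.089 (SE), edgeR adjusted p = 0.000956. Nfkb1 was at 244, 235, 236 and 239 CPM uncultured and 261, 267, 246 and 252 cultured, which did not overlap but differed by only 0.13 ± 0.058 (SE), edgeR adjusted p = 0.0616. Rela at 173 ± 16.0 against 149 ± 13.3 CPM after culture differed by -0.19 ± 0.087 (SE), edgeR adjusted p = 0.0705, and passed in 5 of 15 alternatives. Relb differed by -0.47 ± 0.23 (SE), edgeR adjusted p = 0.0805, and passed (log2 -0.71, adjusted p = 0.00911) when cultured replicate 4 was left out. Rel differed by -0.046 ± 0.17 (SE), edgeR adjusted p = 0.821.

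On introns 8 members fell in culture and 0 rose, where 48.2% of genes passed (23.8% higher, 24.4% lower). The sign differed between the readouts for Nfkb1 and Nfkbib, whose exon values were positive and intron values negative. Rel, which did not pass in exon reads, fell in intron reads by a log2 change of -1.18 ± 0.22 (edgeR adjusted p = 0.00118), and Nfkb1 by -0.28 ± 0.082 (edgeR adjusted p = 0.015). Tnfaip3 and Nfkbiz changed by -2.27 ± 0.41 and -2.28 ± 0.42 in introns.

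The other pathway genes moved in both directions in culture, beside 33.8% of all genes in each. Of kinase genes 4 rose and 5 fell of 12. Chuk, encoding IkB kinase alpha, rose from 22.3 ± 2.76 to 42.6 ± 3.99 CPM (SD), and Ikbke fell by 2.43 on the log2 scale. Of adaptors 7 rose and 9 fell of 21, with Traf1 and Irak2 lower by log2 values of -2.47 and -1.74 and Myd88 higher by 0.42. Of target genes 4 rose and 8 fell of 16. Icam1 and Sdc4 changed by -1.13 and -3.35, while the survival gene Bcl2l1 rose by 1.46 and Sod2 by 0.59. Of receptors 1 rose and 3 fell of 13 and of other inhibitors 3 rose and 5 fell of 14. The median log2 changes of the lists were -0.026 (kinases), -0.26 (other inhibitors), 0.062 (adaptors), -0.33 (receptors) and -0.55 (targets), beside -0.0097 for all genes. Immediate early genes fell (1 rose and 21 fell of 25 tested), from summed levels of 2750.5 to 12793 CPM to 631 to 1024, as did 10 of the 11 HSC markers. Macrophage markers summed to 101 to 129 CPM uncultured and 50.6 to 61.9 cultured, where 7 of 16 were at 0 in all libraries. Erythroid markers summed to 661 to 5533 CPM uncultured and 1138 to 1272 cultured (1 rose and 4 fell of 7 tested). Megakaryocyte markers summed to 524 to 1124 CPM uncultured and 366 to 469 cultured (0 rose and 2 fell of 4 tested). Lymphoid markers summed to 24.3 to 81.1 CPM uncultured and 10.5 to 14.5 cultured (0 rose and 2 fell of 2 tested). The part of these in the members' changes was not tested.

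The falls at day 6 and in culture have no control library in common, so their difference could be tested, in 1 fit of all 30 libraries. On introns the difference passed for Nfkb1 (log2 -0.40 ± 0.10, SE, edgeR adjusted p = 0.0107). It did not pass there for Nfkbiz or Nfkbib (edgeR adjusted p = 0.0600 and 0.916), and the share of all genes was not counted. The values that follow are of exon reads. On these the difference passed for 2 members, 1 in each direction, where 15.1% of 13468 genes did (6.36% positive, 8.77% negative). For Nfkbiz the fall in culture was the larger, with a log2 difference between both effects of -2.05 ± 0.48 (SE), edgeR adjusted p = 0.00369, or -1.19 without uncultured replicate 2 (adjusted p = 0.00326). Nfkbib differed by 0.74 ± 0.26 (SE), edgeR adjusted p = 0.0487, which lay at the threshold and was lost in 23 of 34 alternatives (log2 0.60 to 0.76, adjusted p = 0.050 to 0.136). For Nfkbia, Tnfaip3 and Nfkbie the differences of -0.55 ± 0.42 (SE), edgeR adjusted p = 0.414, of -0.52 ± 0.43 (SE), edgeR adjusted p = 0.457, and of -0.23 ± 0.26 (SE), edgeR adjusted p = 0.619, did not pass, which does not show that both effects were of equal size.

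Between CD48+ HPCs and CD48- HSCs, both of day 10, Nfkbiz and Nfkb2 were lower in the HPCs and the other members did not pass. Here 2 members fell, 0 rose and 8 did not pass, where 26.5% of 12719 genes passed (14.0% higher, 12.5% lower). The share of members was below that of all genes. The median log2 difference was -0.19 beside -0.01 for all genes, and the groups did not overlap for 2 members, against 27.1% of all genes.

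Nfkbiz was at 131, 80.9, 115 and 85.4 CPM in CD48- HSCs and 51.8, 77.4, 63.4 and 68.5 in CD48+ HPCs. All HPC libraries were lower, if by little, and the log2 change was -0.65 ± 0.17 (SE), edgeR adjusted p = 0.015. Nfkb2 was at 99.0, 98.3, 80.7 and 73.9 CPM in HSCs and 66.6, 57.7, 71.4 and 68.0 in HPCs, again without overlap, a log2 change of -0.41 ± 0.12 (SE), edgeR adjusted p = 0.0243. Both calls depended on the setting. In 1 fit of all 30 libraries 0 members passed (adjusted p = 0.119 for Nfkbiz and 0.0680 for Nfkb2). Nfkbiz was also lost without the libraries that stood apart (log2 -0.58, adjusted p = 0.0653), where Nfkbia was called instead, and Nfkb2 with the replicate block (log2 -0.40, adjusted p = 0.0621) and without CD48- replicate 1 or 2 or CD48+ replicate 1, 2 or 4 (log2 -0.42 to -0.35, adjusted p = 0.0506 to 0.0825). Neither had an intron change that passed, with log2 differences of -0.31 ± 0.17 (SE) for Nfkbiz and 0.084 ± 0.20 for Nfkb2. On introns 0 members passed, against 12.5% of genes (1 had an unadjusted p under 0.05 in edgeR, and DESeq2 was not run on introns). Exon and intron differences had the same sign for 5 of the 10 members.

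Nfkbia, at 102, 109.5, 67.5 and 70.1 CPM in HSCs and 55.5, 62.0, 76.1 and 64.9 in HPCs, differed by -0.43 ± 0.16 (SE), edgeR adjusted p = 0.0739, with overlap. It passed with DESeq2 (adjusted p = 0.0489), and without CD48- replicate 3 or 4 or the libraries that stood apart (log2 -0.52 to -0.62). Tnfaip3 differed by -0.075 ± 0.22 (SE), edgeR adjusted p = 0.832, Nfkb1 by -0.10 ± 0.079 (SE), edgeR adjusted p = 0.38, and Rela by -0.06 ± 0.083 (SE), edgeR adjusted p = 0.629. Around them Ikbke fell by 0.68 and Traf1 by 1.24 on the log2 scale. Tnip3, an A20-binding inhibitor, was at 12.4 ± 3.82 against 31.8 ± 9.09 CPM (SD) in HPCs against HSCs. Beside 14.0% of all genes higher and 12.5% lower, of kinases 0 rose and 4 fell of 12, of other inhibitors 0 rose and 3 fell of 14, of adaptors 1 rose and 2 fell of 21, of receptors 2 rose and 2 fell of 16 and of targets 1 rose and 3 fell of 21. The median log2 changes of the lists were -0.15 (kinases), -0.14 (other inhibitors), 0.014 (adaptors), -0.082 (receptors) and -0.13 (targets), beside -0.011 for all genes. Of immediate early genes 1 rose and 14 fell of 26 tested, with summed levels of 2589 to 4214 CPM in HSCs and 1541 to 2669 in HPCs. Macrophage markers were higher in HPCs, at 269 to 1993 against 136 to 551 CPM summed, with 9 of 14 tested called and none of 16 at 0. HSC markers summed to 3565 to 4160.2 CPM in HSCs and 2028 to 2446 in HPCs (0 rose and 10 fell of 11 tested). Megakaryocyte markers summed to 806 to 1126 CPM in HSCs and 226 to 278 in HPCs (1 rose and 2 fell of 5 tested). Lymphoid markers summed to 32.4 to 39.8 CPM in HSCs and 136 to 162 in HPCs (1 rose and 0 fell of 2 tested). Their part in these differences was not tested.

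The same kind of cell was prepared in separate experiments in 2 cases, which shows how far the genes' levels carry across experiments. Between uncultured HSCs and untreated HSCs 0 of 10 members passed, where 4.65% of 13468 genes did, and the groups did not overlap for 2 members, against 10.0% of genes. Nfkb1 and Nfkbie were the members with an unadjusted p under 0.05 (0.0152 and 0.0173), and DESeq2 called 0 members as well. Nfkbie was at 36.4 ± 4.75 CPM uncultured and 26.5 ± 2.98 untreated, a log2 difference of 0.46 ± 0.18 (SE), edgeR adjusted p = 0.153. For Nfkbiz the difference of 0.33 ± 0.32 (SE), edgeR adjusted p = 0.638, became -0.56 without uncultured replicate 2. The CD48- HSCs and the day-10 HSCs of the 5-FU experiment share a gate and a time point. Between them 0 members passed with edgeR on exon reads, where 16.2% of genes did. With DESeq2 2 members passed, and the share of all genes was not counted. Those 2 were Nfkbia, at 87.4 ± 21.7 against 146 ± 72.5 CPM (log2 -0.73 ± 0.26 (SE), edgeR adjusted p = 0.0548; DESeq2 adjusted p = 0.0437), and Tnfaip3, at 32.1 ± 8.49 against 53.1 ± 23.5 (log2 -0.72 ± 0.26 (SE), edgeR adjusted p = 0.0561; DESeq2 adjusted p = 0.0261). With edgeR 3 members had an unadjusted p under 0.05, namely Nfkbia (0.00945), Tnfaip3 (0.00981) and Rel (0.0411). Nfkbia and Tnfaip3 passed when day-10 replicate 2, 3 or 5 was left out, and each in 7 of 34 alternatives. On introns Nfkb1 passed between the CD48- and the day-10 HSCs, with a log2 difference of -0.28 ± 0.067 (SE), edgeR adjusted p = 0.033. The share of all genes on introns was not counted for it. Experiment and library batch cannot be told apart here.

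Across the 30 libraries, centred within each experiment, the 3 members of widest range were set beside 10524 genes by Pearson's r of log2 CPM. The genes were above the level minimum, with predicted genes (Gm or Rik names) and repeated symbols left out. These values describe likeness only, since libraries of 1 group share their treatment. The genes most like Nfkbiz were Zfp36 (r = 0.972), Ppp1r15a (0.951) and Ccnl1 (0.943), and the first 2 belong to the list of immediate early genes. The genes most like Nfkbia were Tnfaip3 (0.934), Icam1 (0.915) and Nfkbie (0.915). For Tnfaip3 they were Nfkbia, Nfkbie (0.915) and Birc3 (0.883). With the mean of 28 immediate early genes Nfkbiz had r = 0.931, Tnfaip3 0.759, Nfkbie 0.735 and Nfkbia 0.709. Nfkb1 had -0.21 and Nfkbib -0.21.

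Within the members, Nfkb1 and Nfkbib stood apart from the rest. Nfkb1 had r between -0.11 and 0.33 with the other 9 members, and Nfkbib between -0.31 and 0.27. Nfkb2, Relb and Nfkbie had r of 0.762 to 0.882 with each other, and Rela and Nfkbie 0.895. Nfkbia had r = 0.804 with Nfkbiz.

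**Figure D5:**
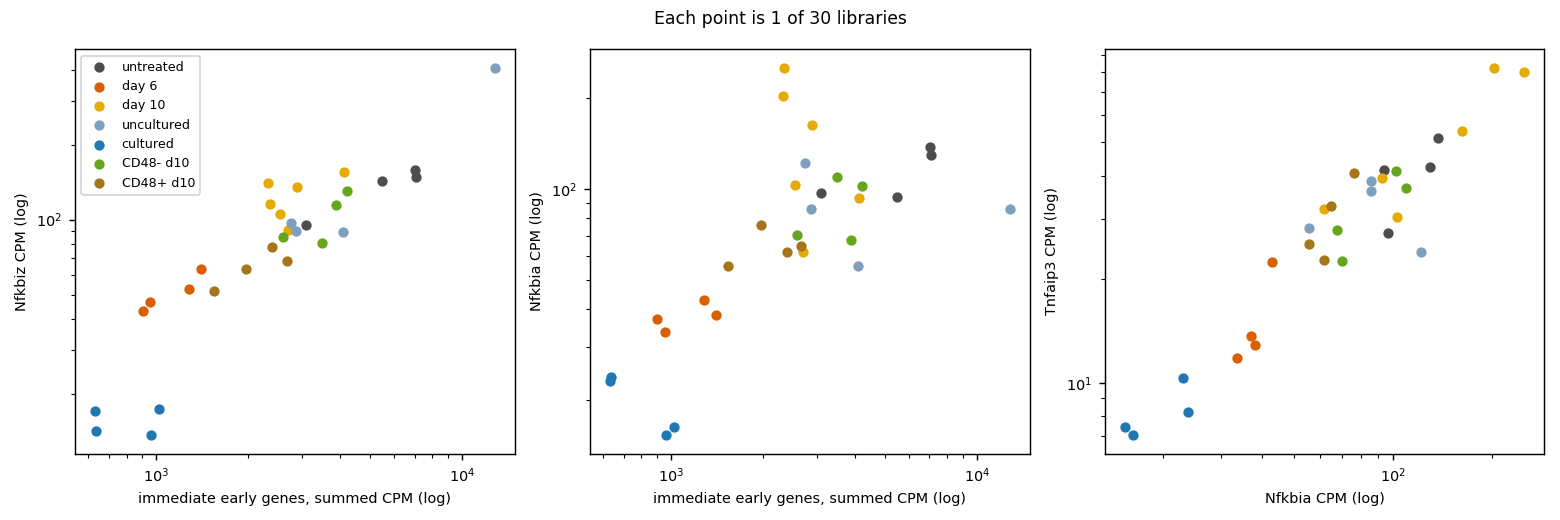
Each point is 1 of the 30 libraries, coloured by group, with both axes on a log scale: Nfkbiz (left) and Nfkbia (middle) against the summed CPM of immediate early genes, and Tnfaip3 against Nfkbia (right). Day-10 replicates 1 and 6, with 251 and 203 CPM of Nfkbia, have the lowest immediate early sums of the day-10 libraries, and the uncultured library far to the right is replicate 2, at 407 CPM of Nfkbiz.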

How the data were processed

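The deposited files give, for each of the 30 libraries, whole-number counts per gene entry of reads on exons (total and unique) and on introns, per the file headers. The libraries were made with a Nextera XT kit from 100 sorted cells each, per the labels' protocols, and reads were mapped to mm10, per the submitters' processing notes. For the aligner, the counter and any use of strand, the value is "not given in the sources used here", so reads of overlapping genes cannot be told apart. Each file has 48737 entries for 46113 gene identifiers. Entries of 1 identifier were summed, and each of the 10 members has 1 entry.

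The 10 members and all gene lists were chosen with earlier results of these data known. Groups follow the sample titles. Total exon reads were tested with edgeR 4.0.16 (R 4.3.3) by its quasi-likelihood F test, with filtering of low counts by group, TMM normalisation, 1 fit per experiment and Benjamini-Hochberg adjustment over all genes tested (threshold 0.05). Comparisons across experiments used 1 fit of all 30 libraries. Intron reads were fitted in the same way. CPM used TMM over all 30 libraries, and CPM per kb used the exon length in the files. The script was tested on simulated data. Depth was 5208722 to 12243208 exon reads, and the lowest count of a member was 45 reads.

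All members are named. From each pathway list in each of the 5 comparisons within an experiment, genes could be named from the up to 2 per direction with the smallest p past the threshold and a mean of at least 5 CPM in the higher group. Genes alike in pattern were the 3 with the highest r for each of the 3 members of widest range. They were taken among genes with a group mean of at least 10 CPM, without predicted genes (Gm or Rik names) and repeated symbols. Beside the day-10 libraries, Birc3, Bcl3, Icam1, Cxcl10, Traf1, Ikbke and Irf1 were chosen after their values were seen. Alternatives were DESeq2 1.42.0, its size factors in edgeR, no filter, a replicate block, all 30 libraries in 1 fit, 2 groups alone, unique exon reads, leaving out each library in turn, and, chosen after seeing the data, leaving out the 6 libraries that stood apart. Libraries of 1 group differed by more than counting noise in all 51 pairs compared (chi-square per degree of freedom 2.46 to 45.7).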

Additional observations from a re-analysis of the deposited data

Results flagged for a closer look

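In 70 combinations of a member and a group with 4 to 6 libraries, 3 had 1 library far from the others by Dixon's criterion, where chance gives about 1 in 20. Nfkbiz was at 406.6 CPM in uncultured replicate 2, while the other 3 uncultured libraries lay at 89.1 to 97.2. Nfkbib was at 22.6 CPM in uncultured replicate 1, against 14.1 to 15.1 in the others. Nfkbib was at 13.6 CPM in CD48+ replicate 3, against 18.0 to 18.4 in the other HPC libraries.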

How the results depend on the processing

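The fall at day 6, the rise from day 6 to day 10 and the falls in culture kept their counts within 1.5 times under every alternative. The count of members higher at day 10 than untreated was 1 in place of 2 with no filter, the replicate block, 2 groups alone, unique exon reads or without the libraries that stood apart. The count higher in culture was 2 with no filter, where Nfkb1 passed (log2 0.17, adjusted p = 0.0342). The count of members for which the culture effect was above the day-6 effect was 0 with no filter or unique exon reads. The count lower in CD48- than in day-10 HSCs was 2 with DESeq2. The count lower in CD48+ HPCs was 1 with the replicate block, where Nfkb2 was lost and Nfkbiz was called, 0 with all 30 libraries in 1 fit and 3 with DESeq2. The cause was not tested, and the share of all genes called under each alternative was not counted.

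With 1 library left out, 6 to 7 members fell at day 6, 1 to 3 were higher at day 10 than untreated, 9 rose from day 6 to day 10, 5 to 6 fell in culture, 1 to 3 were lower in HPCs, 0 to 2 were lower in CD48- than in day-10 HSCs, and 0 to 1 had a higher culture than day-6 effect. Same-numbered libraries did not deviate together (r -0.14 to 0.14 over the 2000 most variable genes), so the numbers were not taken to pair samples. With the replicate block 7 members fell and 1 rose at day 6, 9 rose from day 6 to day 10, and 5 fell and 1 rose in culture. The share of all genes called was not counted in these settings. In the main fits it was 51.4% at day 6, 38.0% at day 10 against untreated, 30.6% from day 6 to day 10 and 67.6% in culture. Counts that hold near such shares set no gene apart.

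Differences that changed sign were all short of the threshold in both settings. Without the libraries that stood apart these were Rel in culture (log2 0.055) and Nfkbib in HPCs (0.025). With 1 library left out, log2 values ran as follows. Nfkbib at day 10 against untreated ran from -0.028 (without untreated replicate 2) to 0.19, and was -0.0037 and -0.024 without day-10 replicate 1 or 6. Between uncultured and untreated Nfkb2 ran from -0.17 to 0.088 (without untreated replicate 1), and, lowest without uncultured replicate 2, Rela from -0.014 to 0.088 and Nfkbiz from -0.56 to 0.55. Rel in culture ran from -0.12 to 0.11 (without uncultured replicate 2). In HPCs Rel ran from -0.14 to 0.046 (without CD48+ replicate 1), Tnfaip3 from -0.25 to 0.068 (without CD48- replicate 1) and Nfkbib from -0.068 to 0.064 (without CD48+ replicate 3).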
